A study of Arabidopsis thaliana with 36 samples.

Results

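The genes described here are the protein-coding genes of the Arabidopsis thaliana plastid genome that encode photosynthetic complexes, the NDH complex and the large subunit of Rubisco. They were chosen by name: a probe set had to match 1 gene of the plastid genome whose symbol starts with psa, psb, pet, atp or ndh, or is rbcL. This gave 43 genes, each with 1 probe set, of 13513 probe sets with 1 gene and 22810 probe sets in all. Photosystem I had 5 genes (psaA, psaB, psaC, psaI and psaJ) and photosystem II had 15 (psbA, psbB, psbC, psbD, psbE, psbF, psbH, psbI, psbJ, psbK, psbL, psbM, psbN, psbT and psbZ). The cytochrome b6f complex had 6 (petA, petB, petD, petG, petL and petN), ATP synthase had 6 (atpA, atpB, atpE, atpF, atpH and atpI) and NDH had 10 (ndhA, ndhC, ndhD, ndhE, ndhF, ndhG, ndhH, ndhI, ndhJ and ndhK). The gene ndhB, which the plastid genome holds in 2 copies, shares a probe set with its other copy and was left out by the rule.

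Shoots and roots of wild-type Col-0 plants were hybridised to Affymetrix ATH1 arrays at 0, 0.25, 0.5, 1, 3, 4, 6, 12 and 24 h, with 2 arrays for each organ and time. All plants were unstressed controls grown on Murashige and Skoog medium at 24 °C, 50% humidity and 16 h of light a day. On day 16 the series began after 3 h of light. The boxes were handled as for stressed plants, being carried from the climate chamber, opened, the raft raised and then returned, and no stress was given. The 12 h samples fell near dusk, and those of 24 h at the same hour as 0 h. The numbers in the sample titles follow the order of the times, except that 0.25 and 4 h are numbered after 24 h. What these numbers stand for is not said in the labels, and their part in the changes at 0.25 and 4 h was not tested.

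Plastids keep a small genome of bacterial origin, whose genes are mostly transcribed together in long units and then cut into smaller RNAs. Photosystem II and photosystem I use light to move electrons, the cytochrome b6f complex links both, and ATP synthase uses the resulting proton gradient to make ATP. The NDH complex returns electrons from the acceptor side of photosystem I, and Rubisco fixes carbon dioxide. Each of these complexes also holds subunits that are encoded in the nucleus and imported. Roots hold non-green plastids with the same genome and little photosynthesis.

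The deposited signals were intensities in arbitrary units, scaled by the authors to a common trimmed mean, and no signal of one probe set is set against that of another as an amount of RNA. Nothing in the labels tells whether the 2 arrays of a group stem from different plants. The p-values here therefore reflect spread among samples that may be technical only, and 2 arrays a group limit the precision. In bulk samples, fewer cells of a type and less RNA per cell cannot be told apart. How the RNA was primed for labelling is not in the labels. Signals of plastid RNA and of ribosomal RNA may depend on it, between organs and over time, and its part was not tested. For most groups the 2 arrays gave close signals for the 43 genes. In shoots at 1 h, however, rbcL read 259 and 1027 on replicates 1 and 2, a 3.97-fold difference, and in roots at 24 h psbC read 84.2 and 322, a 3.82-fold difference. The median fold between the 2 arrays over the 43 genes was 1.67 in roots at 24 h and 1.35 in shoots at 1 h, and between 1.03 and 1.29 in the other 16 groups. The 25S ribosomal RNA (rRNA) control probe set also differed on those arrays, with 1375 and 2385 in shoots at 1 h and 1541 and 2360.4 in roots at 24 h.

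The question of the organ comparison was which of these genes gave a higher signal in shoots than in roots. All 43 gave a higher signal in shoots. Their median difference, shoots minus roots on the scale of log2(signal + 10), was 3.20, and it ran from 1.61 for petN to 5.23 for psbA. All 43 passed the test (limma, moderated test over 36 arrays, Benjamini-Hochberg adjusted p under 0.05), but ndhF, ndhH, ndhJ, ndhK, psbN and petD entered it through their shoot signal alone and so had to differ. The other 37 would have been kept on the root arrays alone, and their median difference was 3.19. Of the 15091 probe sets tested, 92.2% passed in either direction and 31.6% were higher in shoots, with a median of -0.33. For 36 of these 37 genes the lowest of the 18 shoot arrays lay above the highest of the 18 root arrays, against 17.6% of all probe sets.

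The largest differences belonged to genes of photosystem II and NDH. The gene psbA, which encodes the D1 reaction centre protein that is replaced as light damages it, read 1445 to 4483 (median 2545) on shoot arrays and 36.9 to 104 (median 57.6) on root arrays. Its difference was 5.23 (SE 0.068) with an adjusted p of 8.58e-27 (limma). The gene ndhJ, a subunit of the NDH arm that faces the stroma, read 501 to 2598 (median 1027) in shoots and 6.16 to 39.4 (median 22.9) in roots, a difference of 5.02. Its root signal was below 40 on every array, where the added 10 weighs on the difference: without a pseudocount ndhJ was at 5.57 and psbA at 5.46, so the order of the pair rests on this choice. The gene psbD, which encodes the D2 partner of D1, read 1022 to 3657 (median 1976) in shoots and 55.9 to 157 (median 80.5) in roots, a difference of 4.44. Shoot and root arrays did not overlap for these genes.

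The smallest differences belonged to petN, ndhF and psaB. The gene petN, a small subunit of cytochrome b6f, read 93.3 to 341 (median 224) in shoots and 23.8 to 102 (median 61.6) in roots. It was the only member whose shoot and root arrays overlapped, and its difference was 1.61 (SE 0.086) with an adjusted p of 1.17e-14 (limma). The gene ndhF, a membrane subunit of NDH, read 34.7 to 97.4 (median 61.6) in shoots and 4.31 to 24.0 (median 12.8) in roots, so its difference of 1.67 rests on dim signals. Without a pseudocount it was 2.37, the fifth smallest after petN (1.78), psaB (2.05), psbM (2.11) and atpB (2.31), so its place among the 3 smallest rests on the added 10. The gene psaB, one of both core proteins of photosystem I, read 4721 to 6355 (median 5185) in shoots and 530.1 to 2121 (median 1367) in roots, a difference of 2.05. Its partner psaA, from the same transcription unit, read 3469 to 5951 (median 4189) in shoots and 112 to 631 (median 261) in roots, and its difference was 4.02.

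**Figure D1:**
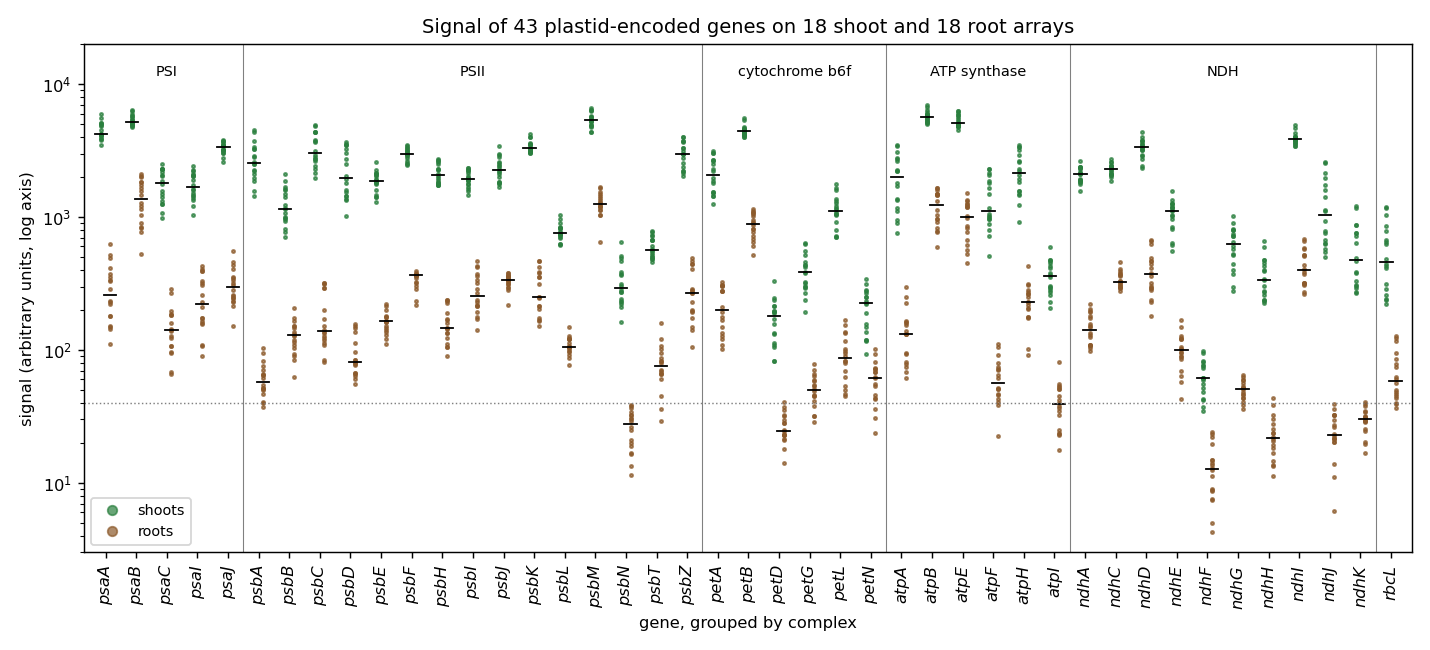
Signal in arbitrary units (log axis) of each of the 43 genes, grouped by complex. Each point is 1 array, green for the 18 shoot arrays and brown for the 18 root arrays, black bars are medians, and the dotted line marks the signal of 40 used in the filter. Shoot arrays lie above root arrays for every gene, with an overlap for petN alone.

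By complex, the median difference was 3.42 for photosystem I, 3.19 for photosystem II, 2.54 for cytochrome b6f, 3.05 for ATP synthase and 3.29 for NDH. It was 2.78 for rbcL, which read 222 to 1192 (median 460.1) in shoots and 36.4 to 127 (median 58.7) in roots. The ranges of the complexes overlapped: photosystem I ran from 2.05 to 4.02, photosystem II from 2.10 (psbM) to 5.23, cytochrome b6f from 1.61 to 3.52 (petL), ATP synthase from 2.30 (atpB) upward, with atpF the highest, and NDH from 1.67 to 5.02. The medians and ranges include ndhF, ndhH, ndhJ and ndhK of NDH, psbN and petD, which entered through their shoot signal alone. Both ends of the NDH range, ndhF and ndhJ, are among them. No test was made between the complexes. Under quantile normalization the median over the 43 genes was 3.06 and with arrays centred on their median it was 3.40, and no member changed direction under any alternative.

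Within photosystem II, psbB and psbC encode the inner antenna proteins CP47 and CP43. For psbB the shoot arrays read 708 to 2097 (median 1149.8) and the root arrays 62.6 to 208 (median 129), and for psbC they read 1979 to 4888 (median 3016) and 81.3 to 322 (median 139). The differences were 3.18 and 4.21. Both chains of cytochrome b559, psbE and psbF, differed by 3.44 and 3.11, with psbF at 2444 to 3451 (median 2989.9) in shoots and 219 to 394 (median 364) in roots. Among the small subunits the differences were 3.71 for psbH, 2.81 for psbI, 2.76 for psbJ, 3.60 for psbK, 2.73 for psbL, 2.10 for psbM, 2.83 for psbT and 3.47 for psbZ. The gene psbN, which in tobacco is needed to assemble photosystem II, differed by 3.19. In photosystem I the differences of psaC and of the small subunits psaI and psaJ were 3.53, 2.89 and 3.42.

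In cytochrome b6f, petA encodes cytochrome f, petB cytochrome b6 and petD subunit IV, and their differences were 3.30, 2.37 and 2.25. The small subunits petG and petL differed by 2.70 and 3.52. For petB the shoot arrays read 3978 to 5508 (median 4398) and the root arrays 516 to 1144 (median 880.3), while petD read 82.0 to 328 (median 179.9) and 14.1 to 40.5 (median 24.8), so root values of petD lay near or below 40. In the ATP synthase head, atpB (the catalytic beta subunit) differed by 2.30, atpE by 2.50 and atpA by 3.73. In its membrane part atpH differed by 3.19 and atpI by 2.90. The membrane subunits of NDH differed by 3.77 (ndhA), 2.71 (ndhC), 3.11 (ndhD), 3.27 (ndhE) and 3.31 (ndhG). Those of the stromal arm beside ndhJ differed by 3.48 (ndhH), 3.21 (ndhI) and 3.74 (ndhK). All of these passed the test of the organ comparison, but petD, ndhH, ndhJ and ndhK entered it through their shoot signal alone.

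Root arrays held measurable signal for most of these genes. The mean root signal was between 1.96% (ndhJ) and 28.9% (petN) of the mean shoot signal, with a median of 10.2%, and it was above 10% for 23 genes. On all 18 root arrays 29 of the 43 genes read at least 40, and ndhF, ndhJ and psbN read below 40 on all 18. Shoot material on the root arrays was read from 5 nuclear genes of green tissue: RCA, which activates Rubisco, the Calvin cycle genes SBPASE and PRK, PSAE-1 of photosystem I and the antenna gene LHCB4.2. Their summed signal on a root array was 0.620% to 1.29% of the shoot mean (median 0.979%), between 136 and 282 against 18717 to 25320 on shoot arrays. Among them RCA stood highest, with 54.0 to 132 (median 100.4) on root arrays against a median of 4916 in shoots, a mean share of 1.90%. This is close to the 1.96% of ndhJ, whose root signals were all below 40. The part of shoot material in the root signals was not tested.

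The other genes of the plastid genome also gave higher signals in shoots. Of all probe sets, 92.2% passed the organ comparison and 31.6% were higher in shoots. All 19 ribosomal protein and RNA polymerase genes passed with a median difference of 2.35, and all 7 of accD, ccsA, cemA, clpP, matK, ycf3 and ycf4 passed with a median of 2.99. As examples, rpl16 of the large ribosomal subunit read 1682 to 4249.6 (median 2799.7) in shoots and 300.5 to 1049 (median 554) in roots, and clpP, a protease subunit, read 1948 to 4202 (median 2973) and 326 to 1114 (median 542). Among nuclear-encoded subunits of the same complexes 8 of 8 passed, with a median of 5.47 and a range of 4.34 to 6.70. PSAE-1 read 4009.9 to 6543 (median 5167) in shoots and 20.2 to 62.0 (median 38.7) in roots, PSBY of photosystem II 3188 to 5235 (median 4449) and 37.1 to 66.1 (median 48.8), and ATPC1 of ATP synthase 3636 to 4844 (median 4053) and 111 to 179.7 (median 141). The 3 antenna genes LHCB4.1, LHCB4.2 and LHCB4.3 had a median of 5.26. LHCB4.3 read 12.0 to 28.9 on root arrays and so entered through its shoot signal alone. For the rest of these lists, genes that would be kept on root arrays alone were not counted. No test was made between the lists. Of the mitochondrial genome, 9 of 18 probe sets were kept, none was higher in shoots and 4 were lower, with a median of -0.10.

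Over time in shoots, 22 of the 43 genes (51.2%) changed by the moderated F-test over all 9 times (limma, adjusted p under 0.05), where 62.6% of all probe sets did. They were 8 of 15 photosystem II genes, 5 of 10 NDH genes, 4 of 6 ATP synthase genes, 3 of 6 cytochrome b6f genes, 1 of 5 photosystem I genes and rbcL. The range between the highest and the lowest group mean was 0.30 (ndhI) to 2.13 (rbcL) on the log2 scale, with a median of 0.91. The highest mean fell at 6 h for 29 genes and at 0.25 h for 11, and the lowest at 24 h for 23. Left out in turn, the arrays of shoots at 1 h each gave 24 genes. With the 25S signal as a covariate 11 of these 22 genes still passed. Among the 11 lost were psaC, the sole photosystem I gene, with an adjusted p of 0.72, and psbF.

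At 0.25 h, the first sample after the start, 12 of the 43 genes were higher than at 0 h and none was lower (limma, adjusted p under 0.05). Of all probe sets, 14.4% passed in either direction and 7.74% were higher. The median change over the 43 genes was 0.40, against 0.03 over all probe sets, and the change was above 0 for all 43. The 12 were psbA, psbB, psbD, psbE, psbF and psbN of photosystem II, ndhG, ndhH, ndhJ and ndhK of NDH, psaC of photosystem I and petD of cytochrome b6f. Other organelle genes had medians of like size: 0.50 over 7 other plastid genes, of which none passed, and 0.50 over 9 mitochondrial probe sets, of which 2 were higher. Of 19 plastid gene expression genes 1 was higher and 1 lower, with a median of 0.15. None of 8 nuclear subunits and none of 3 antenna genes passed, with medians of 0.12 and 0.24.

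The 2 largest changes at 0.25 h were those of ndhK and ndhJ, neighbours in 1 transcription unit. The gene ndhK, an iron-sulfur cluster subunit of NDH, read 379 and 311 at 0 h and 1201 and 1169.7 at 0.25 h, then 270.0 and 329 at 0.5 h, 304 and 717 at 1 h and 635 and 384 at 3 h. It read 875 and 762 at 4 h, 872 and 761 at 6 h, 465 and 489 at 12 h and 291 and 274 at 24 h. Both 0.25 h arrays lay above all other shoot arrays, and the 0.5 h arrays were back at the 0 h level. The change at 0.25 h was 1.76 (SE 0.25) with an adjusted p of 1.02e-04 (limma), and the F over all times was 15.72 (adjusted p 1.82e-06). The gene ndhJ read 786 and 753 at 0 h, 2598 and 2559 at 0.25 h and 543 and 638 at 0.5 h, a change of 1.73 (SE 0.35) at 0.25 h. Their neighbour ndhC read 2085 and 2434 at 0 h and 2413 and 2316 at 0.25 h, a change of 0.07 that did not pass (adjusted p 0.751).

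Without replicate 2 of 0 h, or without replicate 1 of 0.25 h, 6 genes passed at 0.25 h. The 25S rRNA control signal, like most of these genes, was higher at 0.25 h, with 1033 and 947 at 0 h and 2060.3 and 2281 at 0.25 h. In a fit with this signal as a covariate none of the 12 passed, ndhK was at 0.96 and the median change was -0.16. Since the 25S signal moved with time, its part and that of time cannot be told apart. The 7 root markers (PYK10, OSM34, EXPA7, EXPA18, AT3G01190, AT4G15390 and AT4G30170), summed on shoot arrays, read 2273 and 962 at 0 h and 540.0 and 638 at 0.25 h, against 8637 to 10688 on root arrays. Most of this sum on shoot arrays was PYK10, with 439 to 1991 (median 673). The highest shoot signals of AT4G15390, AT4G30170, AT3G01190 and OSM34 were 30.6, 35.0, 18.5 and 162, against root medians of 1642, 1401, 921 and 1782. Those of EXPA7 and EXPA18 were 18.1 and 26.2, against root medians of 48.8 and 56.1. The ratio of the 3′ to the 5′ probe set of actin, a measure of RNA integrity, was 8.77 and 8.07 at 0 h and 5.99 and 6.31 at 0.25 h, and that of GAPDH 1.32 and 1.49 and 1.47 and 1.48. The parts of the root markers and of these ratios in the shoot changes were not tested.

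The 4 times from 0.5 to 4 h were counted after the data were seen. At 0.5 h psbA alone was higher in shoots (0.74 (SE 0.20)), with 5.49% of all probe sets passing and 3.16% higher. At 1 h 7 genes were higher, psbE, psbF, psbJ, psaC, petD, petG and ndhG, with 12.2% of all probe sets passing and 6.68% higher. At 3 h 5 were higher, psbA, psbE, psbF, psaC and ndhE, with 24.8% passing and 13.8% higher, and psbA had the largest change (1.34 (SE 0.20)). At 4 h 12 were higher, psbA, psbB, psbE, psbF, psbN, psaC, petD, petG, ndhE, ndhG, ndhJ and ndhK, with 21.5% passing and 12% higher. The largest were those of ndhJ (1.41 (SE 0.35)) and ndhK (1.23 (SE 0.25)). No member was lower at these 4 times, and the medians over the 43 genes were 0.01, 0.16, 0.13 and 0.36. The 25S signal was 1433 and 1396 at 0.5 h, 2538 and 2073 at 3 h and 2396 and 2450.4 at 4 h, and with it as a covariate none of these calls passed in its direction. At 0.5 h none passed without any 1 array of 0 or 0.5 h. At 1 h none passed without replicate 2 of 0 h or of 1 h, 3 without replicate 1 of 0 h and 4 without either array of roots at 12 h. At 3 h 2 passed without replicate 1 of 3 h, and at 4 h 4 without replicate 2 of 0 h.

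At 6 h, in the afternoon, 17 of the 43 genes were higher than at 0 h and none was lower, with 34.6% of all probe sets passing and 18.7% higher. The median change was 0.47, again above 0 for all 43 genes, against 0.05 over all probe sets. They were 8 photosystem II genes (psbA, psbB, psbD, psbE, psbF, psbJ, psbL and psbN), 5 NDH genes (ndhD, ndhE, ndhG, ndhJ and ndhK), petD and petG, psaC and atpF. Over 7 other plastid genes the median was 0.45 and none passed, over 19 plastid gene expression genes it was 0.29 with 3 higher, and over 9 mitochondrial probe sets 0.24 with 2 higher. Over 8 nuclear subunits the median was 0.26 and none passed. The gene psbA read 1572 and 1445 at 0 h and 3221 and 3252 at 0.25 h, 2569 and 2496 at 0.5 h and 2521 and 1949 at 1 h. It reached 4372 and 3374 at 3 h, 2848 and 2880.0 at 4 h and 4483 and 3704 at 6 h, and read 2112 and 2257 at 12 h and 2209 and 1853 at 24 h. Its 2 lowest shoot arrays were those of 0 h. The change at 6 h was 1.43 (SE 0.20) with an adjusted p of 7.42e-06 (limma), the largest of the 17, and the F over time was 10.40.

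The gene petD, which encodes subunit IV of cytochrome b6f, had the second largest change at 6 h. It read 158 and 82.0 at 0 h, 197 and 192 at 0.25 h, 328 and 247 at 6 h and 109 and 82.6 at 24 h, and changed by 1.25 (SE 0.23) at 6 h (adjusted p 1.51e-04, limma). The gene psaC, which binds the terminal iron-sulfur clusters of photosystem I, read 1063 and 986 at 0 h and 2507 and 2302 at 6 h, and every later shoot array lay above both 0 h arrays. It was the photosystem I gene with the smallest p over time in shoots (F 6.50). In ATP synthase this was atpH, which encodes the ring subunit of the membrane part. It read 2308 and 2064 at 0 h, 3333 and 3167 at 0.25 h, 1222 and 1490.2 at 0.5 h, 3487 and 2915 at 6 h and 1568 and 915 at 24 h (F 5.33), with the 24 h arrays below both 0 h arrays. For rbcL the pairs were 481 and 627 at 0 h, 1192 and 1167 at 0.25 h, 240.3 and 286 at 0.5 h, 439 and 222 at 3 h, 857 and 668 at 6 h and 312 and 237 at 24 h. Its F over time was 5.70 (adjusted p 0.00166), while its change against 0 h passed at none of the 8 later times.

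Without replicate 1 of 6 h, 10 genes passed at that time. With the 25S signal as a covariate, which was 2664 and 2408 at 6 h, none of the 17 passed in its direction, psbA was at 1.01 (adjusted p 0.0738, limma) and the median was -0.37. The actin ratio at 6 h was 5.76 and 4.04, its lowest mean in shoots, and that of GAPDH 1.66 and 1.59, and their part was not tested.

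Near dusk and on the next morning few members differed from 0 h. At 12 h, psaC and psbA were higher and none was lower, with 34.5% of all probe sets passing and 18.5% higher. The changes were 0.66 (SE 0.23) for psaC, with 1498 and 1757 at that time, and 0.53 (SE 0.20) for psbA. At 24 h none was higher and 2 were lower, with 15.5% of all probe sets passing and 7.76% lower: atpA, the alpha subunit of the ATP synthase head, and petN. The gene atpA read 2226 and 2251 at 0 h and 1162 and 760.5 at 24 h, a change of -1.24 (SE 0.40), and petN read 249.8 and 148 and 119 and 93.3, a change of -0.81 (SE 0.26). The median over the 43 genes was 0.05 at 12 h and -0.24 at 24 h, and the 25S signal was 1096 and 815 at 24 h. These calls were near the threshold: without a pseudocount no member passed at 12 h or at 24 h. With the 25S signal as a covariate psaC and psbA did not pass at 12 h. At 24 h atpA (-1.12, adjusted p 7.91e-04, limma) and petN (-0.80, adjusted p 0.0403) still passed in that fit. At 12 h none passed without replicate 2 of 0 h or either 12 h array, and 1 passed with any 1 of 14 other arrays left out. At 24 h none passed without replicate 1 of 0 h or replicate 2 of 24 h, 1 without replicate 1 of 24 h, and 4 without either array of shoots at 1 h.

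**Figure D2:**
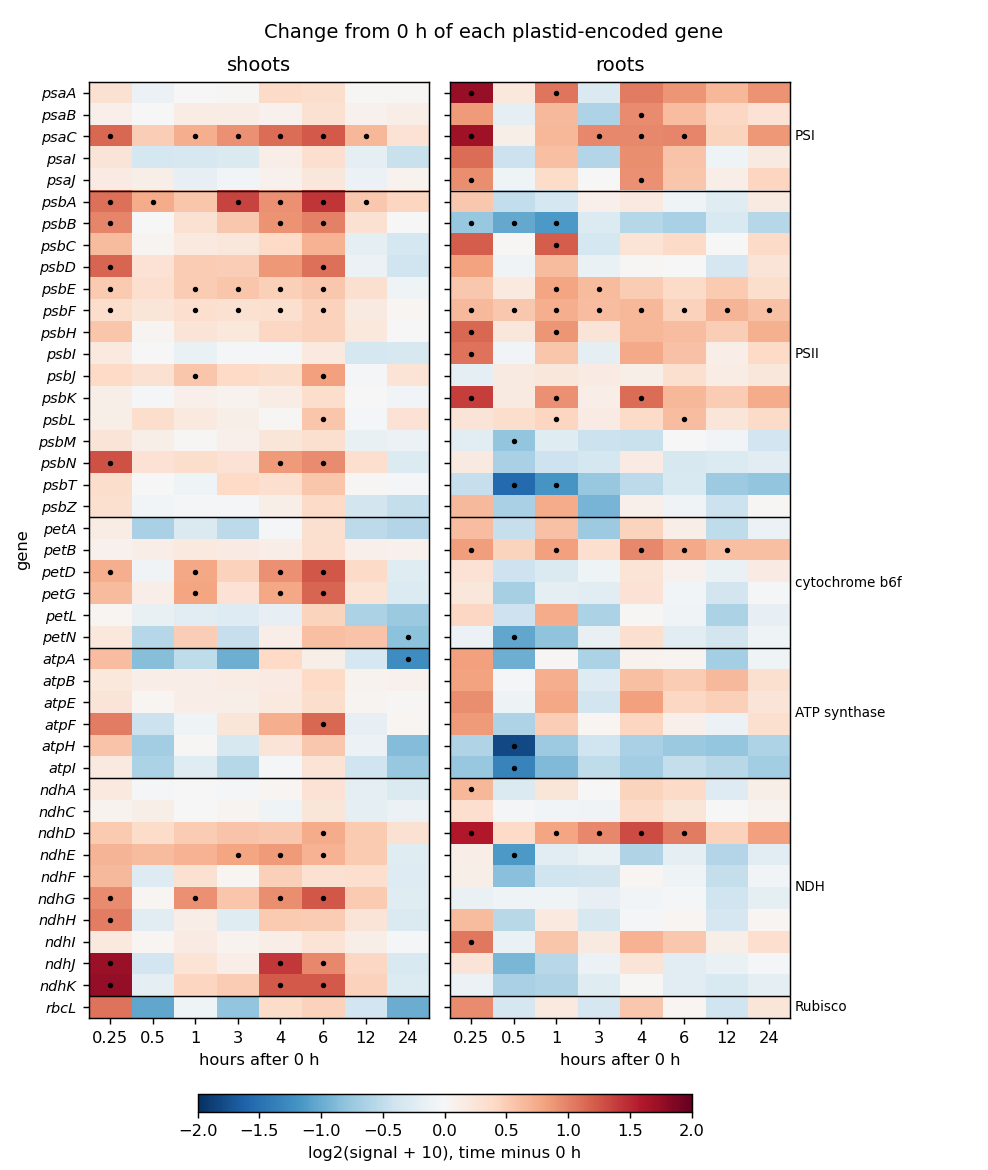
Change from 0 h in log2(signal + 10) of each of the 43 genes (rows, grouped by complex) at the 8 later times (columns), in shoots and in roots. Red is higher and blue lower than at 0 h, and dots mark an adjusted p under 0.05 (limma). In shoots all 43 genes are above 0 at 0.25 and 6 h, while in roots atpH, psbT and psbB are blue at 0.5 h beside a red psbF.

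In roots 31 of the 43 genes (72.1%) changed over time by the moderated F-test, where 17.6% of all probe sets did. They were all 5 photosystem I genes, 11 of 15 photosystem II genes, 5 of 6 cytochrome b6f genes, 4 of 6 ATP synthase genes and 6 of 10 NDH genes, and rbcL did not pass. Among the NDH genes was ndhH, which read 11.4 to 43.6 on root arrays, below 40 on 17 of 18. Of the 22 genes that passed in shoots 11 passed in roots too, 50% of the shoot and 35.5% of the root genes, and 1 gene, ndhF, passed in neither. The ranges over time were 0.40 (ndhG) to 2.03 (psaA), with a median of 1.18. The highest mean fell at 0.25 h for 24 genes and the lowest at 0.5 h for 19 and at 3 h for 10. Among other lists, 10 of 19 plastid gene expression genes, 6 of 7 other plastid genes, 6 of 9 mitochondrial probe sets and 1 of 8 nuclear subunits (NdhS) passed. In a fit of the root arrays alone 14 of the 43 passed, with 12.2% of all probe sets passing. Without either array of roots at 24 h the number was 31. In the fit with the 25S signal as a covariate 26 of the 31 still passed, and ndhC, ndhD, psbE, psbM and petG were lost.

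At 0.25 h 11 genes were higher in roots and psbB was lower, where 5.32% of all probe sets passed, 3.05% higher and 2.27% lower. The 11 were psaA, psaC and psaJ of photosystem I, psbF, psbH, psbI and psbK of photosystem II, ndhA, ndhD and ndhI of NDH, and petB. The median over the 43 genes was 0.63, against -0.03 over all probe sets, and 34 were above 0. The gene psaA read 179 and 144 at 0 h, 494 and 631 at 0.25 h and 230.5 and 151 at 0.5 h, a change of 1.74 (SE 0.31) at 0.25 h (adjusted p 0.00321, limma). The gene psaC read 65.4 and 94.2 at 0 h, 287 and 268 at 0.25 h, 108 and 68.5 at 0.5 h, 106 and 159 at 1 h and 184 and 143 at 3 h. From 4 h on it read 142 and 184, then 195 and 140.0 at 6 h, 127 and 96.7 at 12 h and 122 and 187 at 24 h, so that both 0.25 h arrays were the highest of all. Its change was 1.70 (SE 0.23) and its F over time, 9.78, was the largest of the 43 genes in roots.

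The gene ndhD, which shares a transcription unit with psaC, had the smallest p over time among NDH genes in roots. It read 180.3 and 236 at 0 h, 627 and 668 at 0.25 h, 321 and 230.2 at 0.5 h, 412 and 663 at 4 h, 489 and 382 at 6 h and 294 and 465 at 24 h (F 8.91), and with the 25S signal as a covariate its adjusted p over time was 0.067. In ATP synthase this was atpE, the epsilon subunit of the head, with 831 and 619 at 0 h, 1253 and 1510.3 at 0.25 h and 670.4 and 454 at 3 h (F 5.29). No ATP synthase gene passed against 0 h at 0.25 h in either organ. For rbcL the root pairs were 56.5 and 61.0 at 0 h, 118 and 127 at 0.25 h and 50.1 and 39.5 at 0.5 h, and its F of 2.17 had an adjusted p of 0.182.

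Other organelle genes were also higher at 0.25 h in roots. In the mitochondrial genome 5 of 9 probe sets passed, with a median change of 0.95, in other plastid genes 5 of 7 with a median of 1.18, and in plastid gene expression 8 of 19 with a median of 0.82. None of the 8 nuclear subunits and none of the 3 antenna genes passed, with medians of -0.15 and 0.21. The 25S signal was 1362 and 1210.2 at 0 h and 2549 and 2630.0 at 0.25 h. The 3′ to 5′ ratio of GAPDH was 1.21 and 1.43 at 0 h and 1.02 and 1.05 at 0.25 h. That of actin was 19.7 and 16.7 at 0 h, 14.6 and 11.9 at 0.25 h and 12.8 and 13.2 at 0.5 h, and the part of both was not tested. With the 25S signal as a covariate none of the 12 genes passed, psaC was at 1.12 (adjusted p 0.347, limma), and the median was -0.17. Without replicate 2 of 0 h 4 genes passed, and without replicate 2 of 0.25 h 6 did. The summed shoot markers were 223 and 218 at 0 h and 193 and 282 at 0.25 h.

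At 0.5 h, likewise counted after the data were seen, 7 genes were lower than at 0 h in roots and psbF was higher, where 1.63% of all probe sets passed, 0.941% higher and 0.689% lower. The 7 were atpH, atpI, psbT, psbB, psbM, ndhE and petN, and the median over the 43 genes was -0.33. The gene atpH read 309 and 429.7 at 0 h, 314 and 178 at 0.25 h, 103 and 92.2 at 0.5 h, 176 and 265 at 1 h, 263 and 284 at 3 h and 271 and 203 at 24 h. Both 0.5 h arrays were the lowest of all root arrays, and the change was -1.80 (SE 0.31) with an adjusted p of 0.00558 (limma). The gene psbT, a small subunit of photosystem II, read 101 and 159 at 0 h and 44.8 and 29.1 at 0.5 h, a change of -1.56 (SE 0.24). The 25S signal at 0.5 h was 1533 and 1610.3, and with it as a covariate 7 of the 8 genes still passed. The 5S rRNA control probe set was lower at 0.5 h, with 156 and 227 at 0 h and 63.4 and 68.3 at 0.5 h, and its part was not tested. Without replicate 2 of 0 h no member passed, without replicate 1 or 2 of 0.5 h 2 and 4 passed, and in a fit of the root arrays alone 3 passed.

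At 1, 3 and 4 h, also counted after the data were seen, most calls in roots were higher. At 1 h 9 genes were higher, psbC, psbE, psbF, psbH, psbK, psbL, psaA, petB and ndhD, and psbT (-1.18 (SE 0.24)) and psbB (-1.14 (SE 0.22)) were lower. Of all probe sets 7.91% passed, 3.87% higher and 4.04% lower. At 3 h psbE, psbF, psaC and ndhD were higher and none was lower, with 8.1% of all probe sets passing and 4.34% higher. At 4 h 7 were higher, psbF, psbK, psaB, psaC, psaJ, petB and ndhD (1.30 (SE 0.23)), and none was lower, with 4.86% passing and 2.47% higher. At these 3 times the medians over the 43 genes were 0.37, -0.18 and 0.32. The 25S signal was 2354 and 2311 at 1 h, 2413 and 2514 at 3 h and 2110.4 and 2286 at 4 h, and with it as a covariate none of these calls passed in its direction. At 1 h 5 and 3 passed without replicate 1 and 2 of 0 h, 4 without either 1 h array and 6 with root arrays alone. At 3 h 2 passed without replicate 1 of 0 h and 1 without replicate 1 of 3 h. At 4 h 3 passed without replicate 2 of 0 h, 2 without replicate 2 of 4 h, 3 with root arrays alone and 13 without either 24 h array.

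The gene psbF, which encodes the beta chain of cytochrome b559 in photosystem II, was higher than at 0 h in roots at all 8 later times. When the 25S signal was a covariate it passed at 0.5 and 12 h. It read 234 and 219 at 0 h, 357 and 365 at 0.25 h, 366 and 305 at 0.5 h, 369 and 394 at 1 h, 381 and 327 at 3 h and 365 and 368 at 4 h. At 6 h it read 348 and 286, at 12 h 370.2 and 364 and at 24 h 321 and 369. All 16 later root arrays lay above both 0 h arrays. The 8 comparisons share these 0 h arrays and are not independent. The 25S signals of both 0 h arrays, 1362 and 1210, were also below those of all later root arrays. Mean 3′ to 5′ ratios of GAPDH (1.32) and actin (18.2) were the highest of the root groups at 0 h, and their part was not tested. The change was 0.65 (SE 0.10) at 0.25 h, 0.46 (SE 0.10) at 6 h, 0.67 (SE 0.10) at 12 h and 0.58 (SE 0.10) at 24 h, and its F over time was 8.88.

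At 6 h in roots 5 genes were higher and none was lower, with 5.43% of all probe sets passing and 3% higher: ndhD (1.03), psaC (0.98), petB (0.76), psbL (0.61) and psbF. At 12 h psbF and petB (0.60) were higher, with 3.8% of all probe sets passing and 2.14% higher, and at 24 h psbF alone was, with 2.02% passing and 1.44% higher. The gene petB, which encodes cytochrome b6, had the smallest p over time of its complex in roots (F 6.21), with 609.9 and 516 at 0 h, 1118 and 817 at 6 h and 817 and 895 at 12 h. The counts at these times rested on single arrays. At 6 h 2 and 3 genes passed without replicate 1 and 2 of 0 h, none without replicate 1 of 6 h and 8 without either 24 h array. At 12 h 1 gene passed with any 1 of 25 arrays left out. At 24 h 10 passed without replicate 1 of 24 h, none without replicate 2 of 24 h or of 0 h, and 2 with any 1 of 9 others left out.

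**Figure D3:**
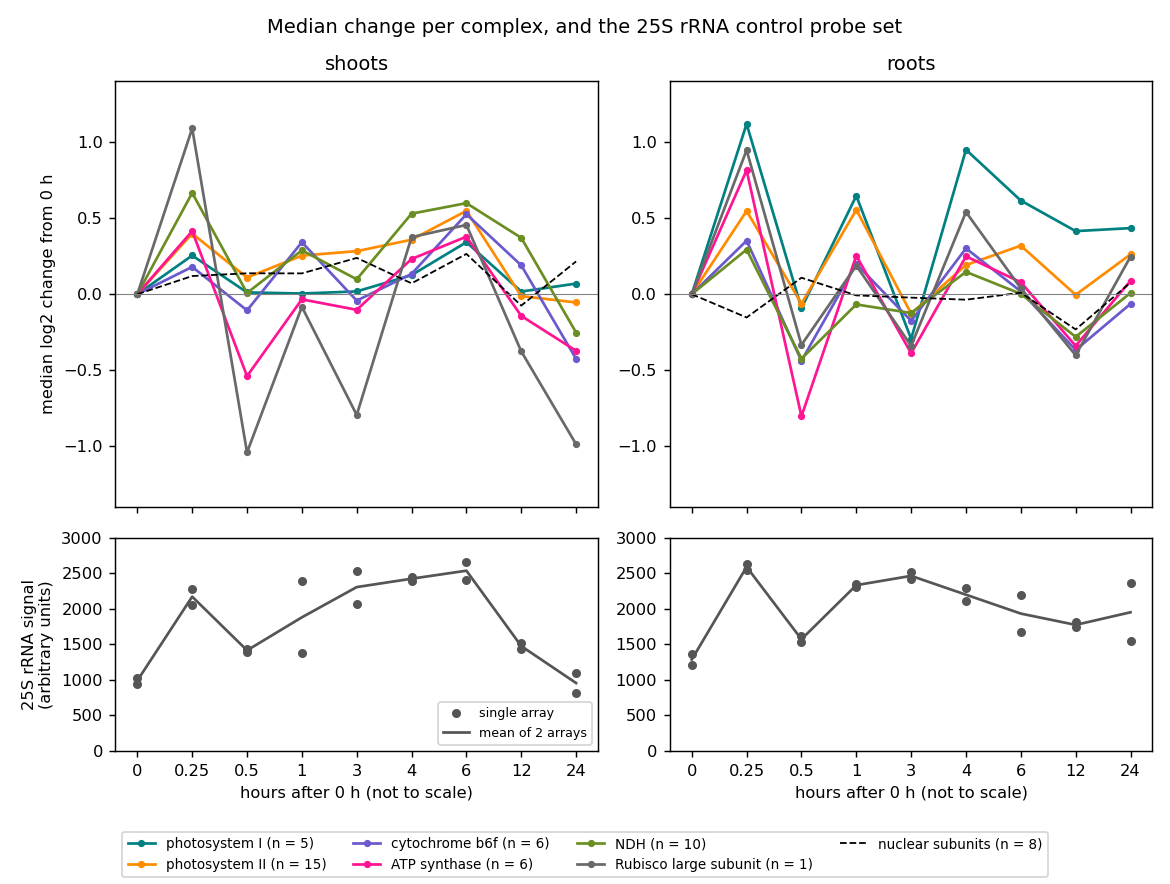
Upper panels: median change from 0 h in log2(signal + 10) of the genes of each complex at 9 times in shoots and roots, with the 8 nuclear subunits as a dashed line. Lower panels: the signal of the 25S rRNA control probe set on single arrays (points) and its mean (line). In roots photosystem I has the highest median at 0.25 h, 1.12, and ATP synthase the lowest at 0.5 h, -0.80.

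Within a transcription unit the group means did not always change in the same direction, though no difference between its genes was tested. In the unit psbB, psbT, psbH, petB and petD, psbB encodes the antenna protein CP47 and psbH a small subunit of photosystem II. In roots psbB fell while psbH and petB rose at 0.25 h. The gene psbB read 173 and 208 at 0 h, 129 and 90.2 at 0.25 h, 92.9 and 83.6 at 0.5 h, 62.6 and 103 at 1 h and 145 and 165 at 3 h, a change of -0.76 (SE 0.22) at 0.25 h and -1.03 (SE 0.22) at 0.5 h. The gene psbH read 111 and 90.7 at 0 h, 238 and 234 at 0.25 h, 134 and 106 at 0.5 h and 167 and 224 at 1 h, a change of 1.15 (SE 0.23) at 0.25 h. The gene petB read 952 and 1069 at 0.25 h and 912 and 1092 at 1 h, a change of 0.84 (SE 0.17) at 0.25 h. On both arrays at 0.25 h, psbB was thus below both 0 h arrays, and psbH and petB were above theirs. The fall of psbB at 0.25 h was near the threshold (adjusted p 0.0432, limma) and did not pass without a pseudocount (0.0517) or without the filter (0.0636). With the 25S signal as a covariate none of these root changes at 0.25 h passed: psbB was at -0.82, psbH at 0.29 and petB at 0.23. In shoots, psbB rose at 0.25 h with 1076 and 708 at 0 h and 1621 and 1861 at 0.25 h, a change of 0.98 (SE 0.22).

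**Figure D4:**
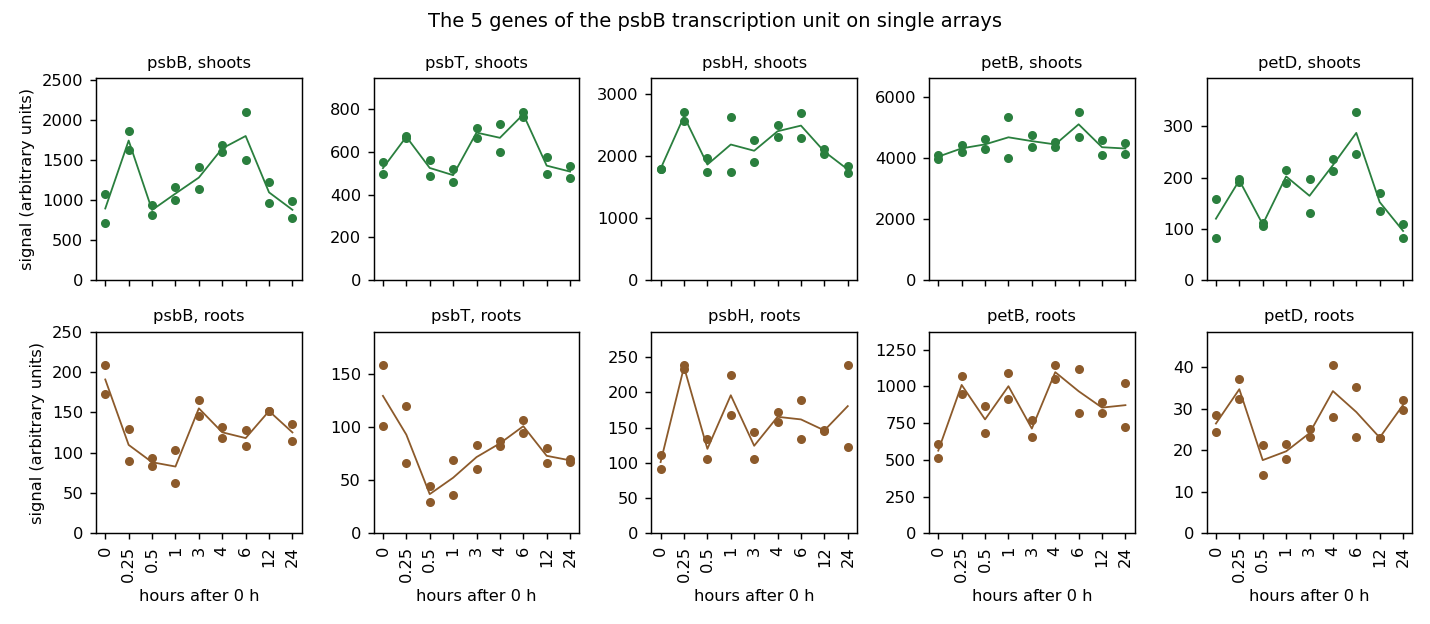
Signal in arbitrary units of the 5 genes of the psbB transcription unit in shoots (upper row) and roots (lower row) at 9 times. Points are single arrays, lines join the means of 2 arrays, and each axis starts at 0. In roots the means of psbB and psbT are highest at 0 h, and those of psbH and petB are lowest there.

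In the unit atpI, atpH, atpF and atpA, the root changes at 0.25 h were -0.75, -0.60, 0.85 and 0.82, and none passed. At 0.5 h all 4 were below 0, from -0.62 for atpF to -1.80 for atpH, and atpI and atpH passed. The pairs of atpI, which encodes a membrane subunit, were 53.2 and 80.9 at 0 h and 22.8 and 17.7 at 0.5 h. In the NDH unit with psaC, the root changes at 0.25 h of psaC, ndhD, ndhI and ndhA, 1.70, 1.60, 1.05 and 0.66, passed. That of ndhA was near the threshold (adjusted p 0.0469, limma) and did not pass without a pseudocount (0.0565), without the filter (0.0691), with the replicate block (0.0512) or with root arrays alone (0.1), and ndhI did not pass with root arrays alone (0.0519). Those of ndhH, ndhE and ndhG, 0.63, 0.13 and -0.14, did not. In the unit psbE, psbF, psbL and psbJ, all 4 passed in shoots at 6 h, with changes of 0.54, 0.46, 0.55 and 0.82. In the unit psbK and psbI both passed in roots at 0.25 h (1.39 and 1.08), and in the unit psbD, psbC and psbZ psbD alone passed in shoots at 6 h, with 1.10 beside 0.70 and 0.38. No difference between genes of a unit was tested.

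The time courses of shoots and roots differed for 13 of the 43 genes (30.2%) by the moderated F-test of the difference, where 40.9% of all probe sets did. They were 5 photosystem II genes, 3 NDH genes, 3 cytochrome b6f genes, psaB and atpH. The largest were psbB (F 7.29, adjusted p 8.62e-04, limma), ndhK (F 6.66) and petN (F 6.54). With the 25S signal as a covariate 9 of the 13 still passed, and psbF, petG, petD and atpH were lost. Other members passed only with the covariate, so that the count over the 43 genes was larger in that fit. In roots ndhK read 34.8 and 39.1 at 0 h and 37.7 and 29.2 at 0.25 h, all below 40, where its shoot signal rose. Like petD, ndhK entered the fit through its shoot signal alone. For petN the shoot pairs were 249.8 and 148 at 0 h, 279 and 269 at 1 h, 249.6 and 341 at 12 h and 119 and 93.3 at 24 h, and the root pairs 68.7 and 73.4, 30.7 and 42.7, 61.2 and 45.9 and 62.1 and 71.4. The count was 24 without replicate 2 of shoots at 1 h, and 27 and 21 without replicate 1 and 2 of roots at 24 h, the arrays that stood apart from their partners.

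In shoots, brighter probe sets had smaller ranges over time. Across the 43 genes, which share arrays and are not independent replicates, Spearman's correlation of the mean signal with the range over time was -0.67 within shoots and 0.15 within roots. The 10 brightest probe sets in shoots, with means of 3319 to 5742, had a median range of 0.40 there, and none passed the F-test in shoots, although all 10 passed in roots with a median range of 1.34. The 10 dimmest, with means of 63.3 to 598, had a median range of 1.42 in shoots and 8 passed. The highest signal of any probe set on any array was 8883. Whether bright probe sets respond less to a given change in RNA was not tested.

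**Figure D5:**
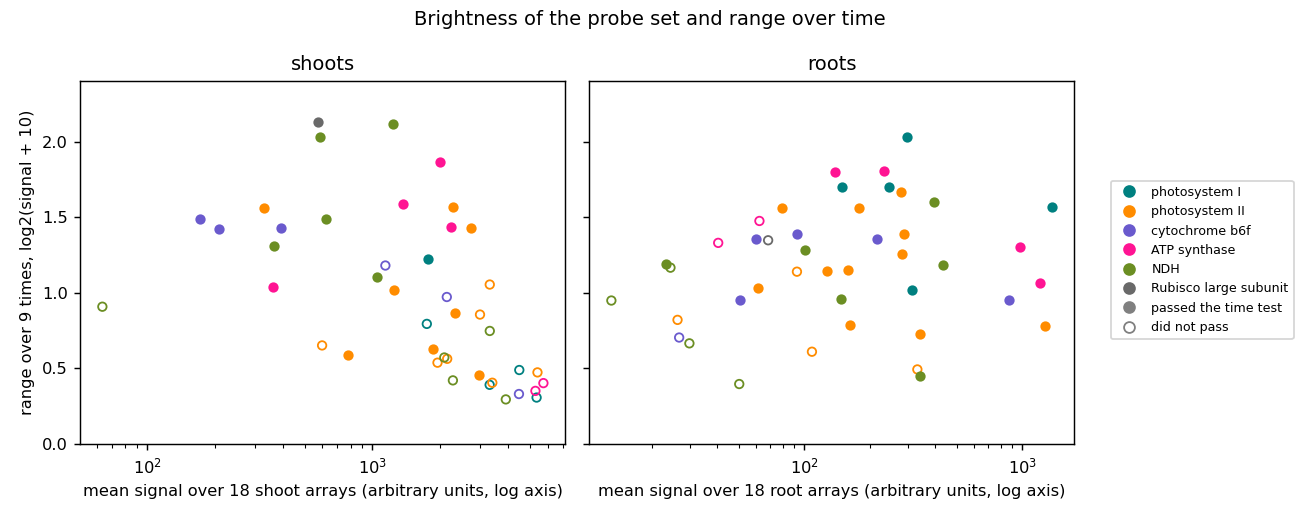
Range of the group means over 9 times (log2 scale) against the mean signal over 18 arrays (arbitrary units, log axis) for each of the 43 genes, in shoots and in roots. Filled points passed the test over time and open points did not. In shoots the 10 brightest probe sets lie toward the bottom right, with ranges of 0.30 to 1.05 and a median of 0.40.

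The 25S signal and the members were also compared within groups. In 5 of 18 groups the 2 arrays differed by over 1.2-fold in 25S signal, a limit set after the data were seen, and in all 5 the array with more 25S also had the higher median over the 43 genes. In shoots at 1 h the 25S signals were 1375 and 2385 and the medians 1405 and 2357. In roots at 24 h the 25S signals were 1541 and 2360.4 and the medians 109.7 and 187. Over all 18 groups this held in 8.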

How the data were processed

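Values are the intensities deposited for 36 ATH1 arrays, 1 column an array. Per the submitters' processing notes they come from MAS5, whose version and settings none of the sources here give. The deposited intensities had been scaled: on each array the mean, after trimming 2% of probe sets at both ends, was 100.007 to 100.01. MAS5 summarises each probe set with its mismatch probes subtracted, so low signals are noisy. Names came from the platform's probe table, with 13436 of 13513 probe sets with 1 gene matched to RefSeq (assembly TAIR10.1, names only).

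Signals were log2-transformed after adding 10, which understates changes of low signals. The 64 control probe sets were set aside, and 15091 probe sets that reached 40 on 2 or more arrays remained, among them all 43 genes; 37 of these would be kept on root arrays alone. limma 3.58.1 in R 4.3.3 fitted 18 group means to all arrays (18 residual degrees of freedom, prior 4.06). Moderated t and F statistics were adjusted over all 15091 (Benjamini-Hochberg, 2-sided, threshold 0.05). The steps were checked on simulated data.

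Genes given in full were, per complex, those with the smallest p over time in each organ, and the 3 largest and 3 smallest organ differences. To these came the 3 smallest p for the difference of the time courses and the 2 largest changes each way per time. Other lists show up to 3 genes with the highest mean signal. The members, lists and tests were chosen with earlier results of these data known. A list of plastid transcription genes matched no probe set. Alternatives were no pseudocount, no filter, a stricter filter (100), quantile normalization, centring, the 25S signal as a covariate, a replicate block, each organ alone, and leaving out each array. Replicate arrays correlated at 0.971 to 0.992. Same-numbered shoot and root arrays did not deviate together (correlation of deviations -0.115 to 0.0502), so no pairing was used.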

Additional observations from a re-analysis of the deposited data

Results flagged for a closer look

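For 13 of the 43 genes the course over time differed between shoots and roots by the moderated F-test of the difference itself (limma, adjusted p under 0.05), over 8 differences from 0 h. Of all probe sets 40.9% passed this test, a larger share than among the 43 genes. In photosystem II these were psbB with an F of 7.29, psbA with 5.82, psbF with 3.34, psbK with 3.26 and psbT with 3.09. In NDH they were ndhK with 6.66, ndhE with 5.45 and ndhG with 5.27. In cytochrome b6f they were petN with 6.54, petD with 4.60 and petG with 4.24. The remaining 2 were psaB with 3.62 and atpH with 3.38. The causes were not tested. All groups hold 2 arrays, too few for a test of single arrays.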

How the results depend on the processing

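All 43 genes were higher in shoots under each alternative that kept them; the stricter filter kept 42. Over all comparisons with 0 h, over time and between organs, 117 of 217 calls of single genes were lost or turned with the 25S signal as a covariate and 40 of 81 with root arrays alone. They were 28 without the filter, 26 without a pseudocount, 18 by centring, 13 by quantile normalization, 9 with the replicate block, 8 of 80 with shoot arrays alone and 0 of 216 under the stricter filter. Leaving out 1 array at a time lost 517 of 7812. The genes then passing in either direction with the 25S signal were, in shoots, 2 (0.25 h), 6 (0.5 h), 11 (3 h), 7 (4 h), 6 (6 h) and 10 (12 h). In roots they were 0 (0.25 h), 2 (1 h), 11 (3 h), 2 (4 h), 7 (12 h) and 0 (24 h). The courses differed between organs for 21. Shares of all probe sets in that fit are not given here, so these counts cannot be set against them. They include calls against the direction of the main fit, such as psbD in shoots at 6 h (adjusted p 0.0494, limma). The changes that turned in shoots were psbE (-0.0135) and psbD (-0.526) at 0.25 h. At 3 h they were psbF (-0.00669) and psbE (-0.0336), and at 4 h psbF (-0.00876), psbE (-0.136), psbN (-0.167) and ndhJ (-0.197). At 6 h they were ndhD (-0.129), psbE (-0.108), psbN (-0.137), psbD (-0.925), ndhJ (-0.727) and atpF (-0.989), and in roots at 1 h psbC (-0.159). The 25S signal moved with time, so these parts cannot be told apart.

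In shoots at 0.5 h the count of 1 became 0 without a pseudocount, and at 1 h that of 7 became 3 without a pseudocount or filter or by centring and 4 by quantile normalization. In shoots at 12 h the count of 2 became 0 without a pseudocount, 1 without the filter, by quantile normalization and by centring, and 4 with shoots alone. In shoots at 24 h it was 0 without a pseudocount or filter, and 1 by quantile normalization or with shoots alone. In roots at 12 h it was 1 without a pseudocount or filter or with roots alone. In roots at 24 h it was 3 under the stricter filter, 4 by quantile normalization and 2 by centring. In roots at 1 h it was 7 without the filter. With roots alone 14 changed over time, 3 at 0.5 h, 6 at 1 h and 3 at 4 h. With the replicate number as a block, which no pairing in the data called for, 1 passed in shoots at 12 h and 1 in roots at 12 h, and no other count moved by over 1.5 times.

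Leaving out each array in turn, the shoot counts were 6 to 14 genes (0.25 h), 0 to 1 (0.5 h), 0 to 8 (1 h), 2 to 7 (3 h), 4 to 15 (4 h), 10 to 19 (6 h), 0 to 3 (12 h), 0 to 4 (24 h) and 20 to 27 (over time). The root counts were 4 to 17 (0.25 h), 0 to 9 (0.5 h), 3 to 16 (1 h), 1 to 5 (3 h), 2 to 13 (4 h), 0 to 8 (6 h), 1 to 3 (12 h), 0 to 10 (24 h) and 23 to 34 (over time). The courses differed for 9 to 27, and the organ comparison stayed at 43. Arrays give no read depth. Dim root signals limit what the changes of ndhF, ndhJ and psbN, below 40 on all 18 root arrays, can show. The same holds for ndhH, ndhK and petD, below 40 on 17 of them.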
